A study of Mus musculus with 30 samples.

Results

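Adrenomedullin is a secreted peptide hormone, encoded by Adm, and its receptor is assembled from Calcrl and a receptor activity-modifying protein, encoded by Ramp1, Ramp2 or Ramp3. These 5 of the 35973 genes in the RNA tables are described here in fibroblasts from mouse tail tendon. They were chosen by name, with their RNA changes in these data already known. Their RNA values are therefore given as a description, without p-values. Sites in the lists of chromatin signal that carry a member's name were also included.

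The cells were primary fibroblasts from tail tendon, labelled wildtype, and were grown with 10% fetal bovine serum. All groups were treated in medium with 0.1% serum. RNA was measured by poly(A) sequencing in 3 libraries with the solvent DMSO, in 3 with 10 µM blebbistatin and in 3 with 30 µM Y27632. Blebbistatin inhibits non-muscle myosin II, the motor of actomyosin contraction, and Y27632 is a kinase inhibitor. ATAC-seq, which measures open chromatin, was made in the same 3 treatments with 3 libraries each. A further 12 libraries, 3 in each of 4 groups, had blebbistatin at 10 µM, doxycycline at 10 ng/mL, both drugs or neither; their labels give neither the assay nor what doxycycline induced. The stated purpose of the series concerns mechanical cues and Yap/Taz in chromatin and transcription. Treatment times, and whether replicates came from separate cultures or animals, are not stated, so all spreads and p-values measure only the differences between these libraries.

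In the receptor, CALCRL is a G protein-coupled receptor that reaches the cell surface with a RAMP partner, and the partner sets which ligand it binds best. With RAMP1 it forms the receptor of calcitonin gene-related peptide, and with RAMP2 or RAMP3 it forms adrenomedullin receptors. Binding couples mainly to Gs, adenylyl cyclase and cAMP. Adrenomedullin is best known as a vasodilator and as a factor needed for lymphatic and blood vessel development. It is also secreted by fibroblasts, and its gene is a known target of hypoxia-inducible factors (HIF).

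The sequences just upstream of Adm and Ramp3 are shown. Their RNA lay on opposite sides of the DMSO level under blebbistatin, but Ramp1 RNA also lay above that level. Among the members' windows, only those of Adm and Ramp3 held a match to a motif searched below. RefSeq (GRCm38.p6) held a promoter window for 4 of the 5 members, with Ramp2 the exception. The Adm stretch is chr7:110627407-110627656 on the + strand and ends at the base before the annotated gene. The Ramp3 stretch is chr11:6658283-6658505 on the + strand, likewise trimmed at the annotated gene. Capitals mark matches to GCGTG, a core of the hypoxia response element, on either strand (CACGC on the other strand), and to GGAATG, the TEAD motif (CATTCC on the other strand).

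Adm: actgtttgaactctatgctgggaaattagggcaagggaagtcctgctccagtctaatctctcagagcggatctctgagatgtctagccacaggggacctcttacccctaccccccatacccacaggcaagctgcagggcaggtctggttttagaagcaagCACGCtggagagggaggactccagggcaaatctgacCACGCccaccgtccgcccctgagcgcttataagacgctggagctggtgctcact

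Ramp3: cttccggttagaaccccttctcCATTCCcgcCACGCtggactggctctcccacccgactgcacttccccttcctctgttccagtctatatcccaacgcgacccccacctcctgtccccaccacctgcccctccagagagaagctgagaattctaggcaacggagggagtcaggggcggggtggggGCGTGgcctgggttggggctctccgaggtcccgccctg

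The Adm stretch held GCGTG at 2 places, at bases -90 to -86 and -54 to -50 from the start of the gene. The Ramp3 stretch held it at -192 to -188 and at -38 to -34 from the start of the annotated gene, and held GGAATG at -201 to -196. No base was shared between these matches. RefSeq's own windows for Ramp3 and Calcrl run 27 and 139 bases into the annotated gene, and the whole windows were searched. Among 32851 promoter windows of 250 upstream bases, 28.2% held GCGTG and 12.6% held GGAATG. The other motifs searched on both strands were ACGTG (16.6% of windows), TGANTCA of AP-1 (6.75%), TGACG of the cAMP response element (17.8%) and the CArG box (1.47%). None of these letters was found in the windows of Adm, Calcrl, Ramp1 or Ramp3, and Calcrl and Ramp1 held none of the 6 motifs. A match describes letters only and shows no binding.

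Blebbistatin was accompanied by a lower level of the ligand RNA and higher levels of the receptor partners. Adm, at chromosome 7, bases 110627657 to 110629820 of GRCm38.p6, stood at 759, 789 and 809 in DMSO in counts-per-million units (CPM, scaled jointly over the 9 libraries). In blebbistatin it stood at 149, 154 and 155 CPM, and in Y27632 at 728, 725 and 769 CPM. All 3 blebbistatin libraries lay far below the other 6, while the ranges of Y27632 and DMSO overlapped. The mean was 786 ± 25.5 CPM in DMSO, 153 ± 3.01 in blebbistatin and 741 ± 24.5 in Y27632 (SD, n = 3 each), 5.17-fold lower with blebbistatin than with DMSO. In bulk RNA, fewer cells making a transcript and less transcript per cell cannot be told apart.

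The log2 change of Adm was -2.37 (SE 0.033) for blebbistatin and -0.08 (SE 0.035) for Y27632, each against the same DMSO libraries. The direct difference, blebbistatin minus Y27632, was -2.28 (SE 0.035). Adm ranked 28th lowest of 14882 genes tested against DMSO with blebbistatin and 18th lowest of 14955 in the direct comparison. With Y27632 it was not called, but the change was -0.11 and was called when Y27632 replicate 3 was left out. RefSeq places a long noncoding RNA gene, Gm28863, across the whole of Adm. It was not analysed here, and whether reads were counted by strand is not stated, so reads from both cannot be told apart.

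Calcrl encodes the receptor that every RAMP partner shares. Its level was 29.0, 34.5 and 34.7 CPM in DMSO, 29.7, 31.5 and 33.4 CPM in blebbistatin, and 24.2, 25.2 and 26.4 CPM in Y27632. The blebbistatin libraries lay within the DMSO range, and the 3 Y27632 libraries lay below every other library. The log2 change was -0.06 (SE 0.071) with blebbistatin and -0.36 (SE 0.068) with Y27632. In the direct comparison Calcrl was 0.32 (SE 0.069) higher with blebbistatin than with Y27632 on the log2 scale. The order of the means was thus DMSO (32.7 ± 3.22), blebbistatin (31.5 ± 1.84) and Y27632 (25.3 ± 1.07 CPM, SD, n = 3 each), and the first pair differed by less than its spread.

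Ramp2, the partner for the adrenomedullin receptor most studied in vessels, had 4.19, 3.45 and 4.25 CPM in DMSO. It had 13.7, 15.6 and 14.9 CPM in blebbistatin and 7.62, 6.64 and 8.15 CPM in Y27632. The 3 groups did not overlap and followed the order DMSO, Y27632, blebbistatin. The log2 change was 1.88 (SE 0.104) with blebbistatin, a 3.69-fold higher level, and 0.92 (SE 0.119) with Y27632. Blebbistatin exceeded Y27632 by 0.98 (SE 0.093) on the log2 scale.

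Ramp3, the other adrenomedullin partner, was sparse, with 6, 7 and 9 reads in DMSO, 35, 39 and 32 in blebbistatin and 24, 8 and 17 in Y27632. In CPM these were 0.225, 0.291 and 0.390 in DMSO, 1.38, 1.21 and 1.11 in blebbistatin, and 0.653, 0.256 and 0.641 in Y27632. Every blebbistatin library lay above the other 6, and Y27632 replicate 2 lay within the DMSO range. The log2 change was 1.92 (SE 0.284) with blebbistatin, and 0.64 (SE 0.401) with Y27632. The direct difference was 1.24 (SE 0.291) in favour of blebbistatin. Its DMSO mean of 8.01 normalised counts was under the minimum of 10, so the gene entered both DMSO comparisons only through its treated libraries. The annotated pseudogene Gm11978, which overlaps Ramp3, had 0 reads in every library.

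Ramp1, the partner for the receptor of calcitonin gene-related peptide, had 23, 17 and 17 reads in DMSO, 27, 57 and 41 in blebbistatin and 44, 34 and 31 in Y27632. The levels were 0.861, 0.707 and 0.737 CPM in DMSO, 1.06, 1.77 and 1.43 in blebbistatin, and 1.20, 1.09 and 1.17 in Y27632. Both treatments lay above DMSO without overlap, and overlapped each other. The log2 change was 0.83 (SE 0.240) with blebbistatin and 0.57 (SE 0.215) with Y27632, with a direct difference of 0.32 (SE 0.209). The blebbistatin call rested on replicate 2: without it the change was 0.65 and the gene was not called.

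**Figure D1:**
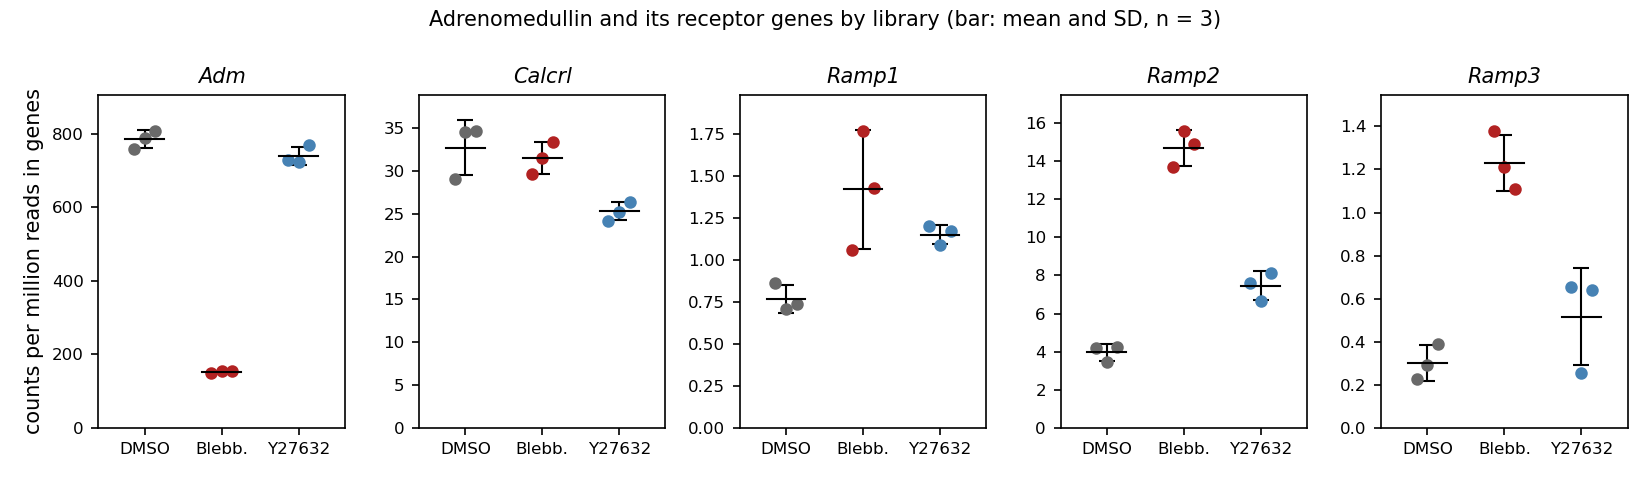
Level of each of the 5 genes in CPM (vertical axes, each from 0 and on its own scale) by treatment. Points are libraries and black bars the mean and SD of 3; Adm stands near 153 CPM in blebbistatin against 786 in DMSO, while Ramp2 stands at 14.7 against 3.96.

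Counting calls, 4 of the 5 genes passed an adjusted p of 0.05 for blebbistatin against DMSO, 3 of them higher and 1 lower. In that comparison 53.0% of all genes tested were called, 26.1% higher and 26.9% lower. For Y27632 against DMSO 2 of 5 passed, Ramp2 higher and Calcrl lower, where 35.9% of genes were called, 18.1% higher and 17.8% lower. For blebbistatin against Y27632 4 of 5 passed, 3 higher and 1 lower, where 53.1% were called, 26.9% higher and 26.2% lower. With a minimum mean of 50 normalised counts, Ramp1 and Ramp3 were not tested with blebbistatin and 2 calls were left. Since the genes were chosen on these changes, nothing is read from the counts. Levels are not compared between genes, because transcript lengths were not used.

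**Figure D2:**
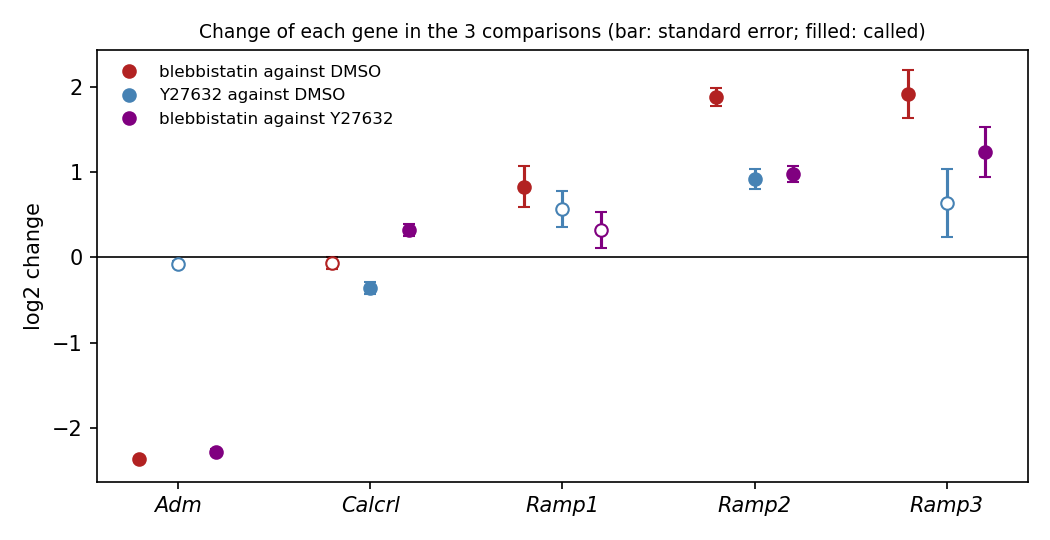
Log2 change of each gene in the 3 comparisons, with standard error bars; filled points were called and open points were not. Adm is near -2.37 with blebbistatin and near 0 with Y27632. Ramp1, Ramp2 and Ramp3 lie above 0 in all 3 comparisons, but of these only Ramp2 was called in each.

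The fibroblast label held: all 12 tendon fibroblast markers were read in every treatment, at a summed 30087.5 to 34602.4 CPM. Most of this was collagen RNA, with Col1a1, Col1a2 and Col3a1 at DMSO means of 10734.8, 8892.3 and 8695.1 CPM. The other markers ranged in DMSO from a mean of 2.41 CPM for Scx to 2129.1 CPM for Dcn. Libraries held 23375386 to 37061737 reads in genes. Because Calcrl and Ramp2 are known from endothelium, its 8 markers were set beside them. They summed to 121 to 124 CPM in DMSO, 78.4 to 88.4 in blebbistatin and 109 to 116 in Y27632, and nearly all of this was Tek, at a mean of 117 CPM in DMSO, 76.2 in blebbistatin and 106 in Y27632. The other detected markers did not follow Tek. With blebbistatin Vwf was called higher (log2 change 0.68, adjusted p = 0.0222), and Cdh5 and Kdr had changes of 0.30 and 0.60 without passing the test. In DMSO, Cdh5 had 70, 66 and 51 reads, Vwf 58, 44 and 26, Kdr 10, 16 and 14, and Pecam1 6, 4 and 6, while Tie1, Emcn and Cldn5 had 0 in all 3 libraries. Leukocyte markers did move with treatment: 5 of 6 were called higher with blebbistatin and 6 of 6 with Y27632, at 57.7 to 66.0 CPM in DMSO, 82.0 to 95.3 in blebbistatin and 79.4 to 91.8 in Y27632. Between the treatments 0 of 6 leukocyte markers differed at an adjusted p of 0.05 (edgeR), where 53.1% of all genes did. Against DMSO the share of all genes called higher was 26.1% with blebbistatin and 18.1% with Y27632. The 4 Schwann cell markers summed to 7.33 to 9.06 CPM in DMSO, 13.4 to 14.5 in blebbistatin and 8.71 to 10.9 in Y27632, an order shared with Ramp2. The 6 mural markers summed to 84.7 to 95.2 CPM in DMSO, 101 to 113 in blebbistatin and 90.6 to 113 in Y27632. Most of this was Cspg4, at a mean of 75.6 CPM in DMSO, 89.1 in blebbistatin and 91.2 in Y27632. Rgs5 went the other way, at means of 3.55, 2.44 and 2.96 CPM in the same order. Of 4 mural markers tested, 2 were called higher and 1 lower with blebbistatin, and 1 higher and 0 lower with Y27632. Shares of all genes called were 53.0% and 35.9%. The 4 keratinocyte markers summed to at most 2.83 CPM. The part of these cells in the RAMP results was not tested.

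The rest of the calcitonin family and the genes that process or clear adrenomedullin were described as a list of 10 genes, of which 5 were abundant enough to test. Against DMSO, 1 rose and 2 fell with blebbistatin, and 3 rose and 1 fell with Y27632. The list's median log2 change was 0.05 and 0.11, beside 0.00 over all genes in each comparison. The share of all genes called was 53.0% and 35.9%. Between the treatments 2 were higher and 3 lower with blebbistatin, where 53.1% of all genes were called.

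Adm2, which encodes the related ligand intermedin, was the family ligand that could be tested, and it fell with both drugs. It had 7.93, 8.53 and 8.63 CPM in DMSO, 2.83, 2.18 and 1.98 in blebbistatin and 2.78, 4.42 and 3.36 in Y27632. Both treatments lay below DMSO without overlap. Its log2 change was -1.85 (SE 0.139, adjusted p = 2.72e-07) with blebbistatin and -1.26 (SE 0.145, adjusted p = 2.28e-05) with Y27632. The direct difference of -0.60 (adjusted p = 0.0110, edgeR) became -0.39 (adjusted p = 0.0671) without Y27632 replicate 2. In Y27632, Adm overlapped DMSO and Adm2 did not. The remaining ligands Calca, Calcb and Iapp, and the calcitonin receptor Calcr, were too sparse to test. Calca had at most 9 reads in any library, and Iapp had 0 in all.

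Ackr3 encodes an atypical receptor that binds and clears adrenomedullin as well as the chemokine CXCL12. It stood at 167, 172 and 168 CPM in DMSO, 84.3, 92.2 and 83.8 in blebbistatin and 188, 183 and 180 in Y27632. It fell with blebbistatin (log2 change -0.97, SE 0.041, adjusted p = 1.59e-09) and was slightly higher with Y27632 (0.13, SE 0.031, adjusted p = 0.00616). The direct difference was -1.08 (SE 0.038, adjusted p = 3.65e-11). The blebbistatin libraries lay below all others, and the Y27632 libraries just above DMSO.

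Pam encodes the enzyme that amidates the C-terminus, a step adrenomedullin needs for activity. It rose by a small amount with blebbistatin, from 515 ± 7.13 to 595 ± 12.7 CPM (SD, n = 3 each; log2 change 0.20, adjusted p = 8.56e-05, limma). Pam was also called higher with Y27632, at 553 ± 13 CPM (log2 change 0.11, SE 0.030, adjusted p = 0.0109, limma). That Y27632 call ended without DMSO replicate 2. Mme, which encodes the peptidase neprilysin, rose with Y27632 (0.37, SE 0.068, adjusted p = 0.000905) and had a change of 0.05 (SE 0.071) with blebbistatin.

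Downstream of the receptor, the cAMP pathway list covered Gs, adenylyl cyclases, protein kinase A, phosphodiesterases and the factors that desensitise receptors. Of its 40 genes 38 were tested, and 18 rose and 9 fell with blebbistatin, at a median log2 change of 0.07. With Y27632 8 rose and 7 fell, at a median of -0.01. The medians over all genes were 0.00 in both, and 53.0% and 35.9% of all genes were called. Between the treatments 17 were higher and 10 lower with blebbistatin, where 53.1% of all genes were called.

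By role, 6 of 8 adenylyl cyclases tested rose and 1 fell with blebbistatin, and 2 rose and 3 fell with Y27632. Among all genes, 26.1% rose and 26.9% fell with blebbistatin, and 18.1% rose and 17.8% fell with Y27632. Adcy2 rose with blebbistatin by 0.66 (SE 0.080, adjusted p = 1.99e-05). Of 6 protein kinase A subunits 1 rose and 4 fell with blebbistatin, among them Prkar2a at -0.49 (SE 0.049, adjusted p = 3.99e-06). Prkar2b, another regulatory subunit, fell with both drugs, at -0.42 (SE 0.071, adjusted p = 0.00032) with blebbistatin and -0.52 (SE 0.064, adjusted p = 3.96e-05) with Y27632.

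Among phosphodiesterases, which break down cAMP, 4 of 9 rose and 1 fell with blebbistatin, and 4 rose and 0 fell with Y27632. The shares called over all genes were 53.0% and 35.9%. Pde7b rose with both, by 1.62 (SE 0.077, adjusted p = 4.24e-09) and 0.82 (SE 0.096, adjusted p = 2.63e-05), and Pde4b fell with blebbistatin by 0.84 (SE 0.054, adjusted p = 6.19e-08) on the log2 scale. Grk5, a kinase that desensitises receptors, fell with both drugs, at -0.95 (SE 0.042) with blebbistatin and -0.34 (SE 0.037) with Y27632. Rapgef3, a cAMP-activated exchange factor, was lower with Y27632 (-0.60, SE 0.102, adjusted p = 0.000508). Gnas, which encodes Gs itself, stood at a mean of 1211.0 CPM in DMSO, 1218.7 in blebbistatin and 1286.8 in Y27632. Against DMSO it was called higher with Y27632 and was not called with blebbistatin.

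Genes known to be induced by cAMP differed in level between the 2 drugs. Several of them are immediate early genes that serum and other stimuli also induce. Of 14 listed, 13 were tested: 7 rose and 3 fell with blebbistatin (median 0.20), and 11 rose and 0 fell with Y27632 (median 0.78). In the direct comparison 2 were higher and 10 lower with blebbistatin, at a median of -0.89 against 0.01 over all genes. Shares called over all genes were 53.0% with blebbistatin, 35.9% with Y27632 and 53.1% in the direct comparison.

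The nuclear receptor gene Nr4a1 had 14.0, 12.9 and 11.8 CPM in DMSO, 12.2, 15.7 and 17.3 in blebbistatin and 92.3, 78.5 and 106 in Y27632. Only the Y27632 libraries stood apart, with a log2 change of 2.83 (SE 0.092, adjusted p = 7.43e-10). Its relative Nr4a3 rose by 2.98 (SE 0.174) and the prostaglandin synthase gene Ptgs2 by 2.0 (SE 0.101) with Y27632, with adjusted p = 4.89e-08 and 1.23e-08. Rgs2, a regulator of G protein signalling, was instead highest with blebbistatin. Its levels were 19.0, 21.2 and 21.6 CPM in DMSO, 104, 93.6 and 106 in blebbistatin and 25.7, 29.2 and 24.1 in Y27632. Rgs2 thus lay above DMSO in the libraries of both drugs. It was 2.29 (SE 0.061, adjusted p = 3.75e-11) higher with blebbistatin than with DMSO and 1.94 (SE 0.069, adjusted p = 3.72e-11) higher than with Y27632 on the log2 scale. Ppargc1a, a metabolic coactivator, rose with blebbistatin by 1.60 (SE 0.145, adjusted p = 1.46e-06). Dusp1, a MAP kinase phosphatase, fell with blebbistatin, at -0.66 (SE 0.042, adjusted p = 5.27e-08).

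Other HIF targets were counted because Adm is such a target. All 21 genes were tested, and 5 rose and 10 fell with blebbistatin (median -0.18), while 3 rose and 10 fell with Y27632 (median -0.09). In the direct comparison 6 were higher and 12 lower with blebbistatin, where 53.1% of all genes were called. Against DMSO that share was 53.0% with blebbistatin and 35.9% with Y27632. With blebbistatin Vegfa, the vascular growth factor gene, fell (-0.68, SE 0.048, adjusted p = 1.31e-07), as did the glycolytic regulator Pfkfb4 (-0.67, SE 0.058) and the collagen hydroxylase P4ha2 (-0.58, SE 0.042). Hexokinase gene Hk2 rose with both drugs, by 0.47 (SE 0.050) and 0.67 (SE 0.066). Ddit4, a stress-induced inhibitor of mTOR signalling, fell with Y27632 (-0.62, SE 0.045, adjusted p = 3.8e-07). No HIF target named here had a change as large as that of Adm with blebbistatin. Adm was chosen with its change known, so nothing is read from this difference.

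Of the HIF factors, Epas1 fell with both drugs, at -0.37 (SE 0.050, adjusted p = 5.21e-05) with blebbistatin and -0.62 (SE 0.054, adjusted p = 1.72e-06) with Y27632. Hif1a fell with blebbistatin (-0.29, SE 0.033, adjusted p = 1.15e-05), from 476 ± 12 to 392 ± 11.8 CPM (SD, n = 3 each). With Y27632 Hif1a was called higher (0.10, SE 0.031, adjusted p = 0.0191), a call that ended without DMSO replicate 1 or 2 or Y27632 replicate 1 or 3 (0.09 to 0.10), and the direct difference was -0.38 (SE 0.032, adjusted p = 2.39e-07). These are RNA levels of factors that are regulated mainly as proteins.

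**Figure D3:**
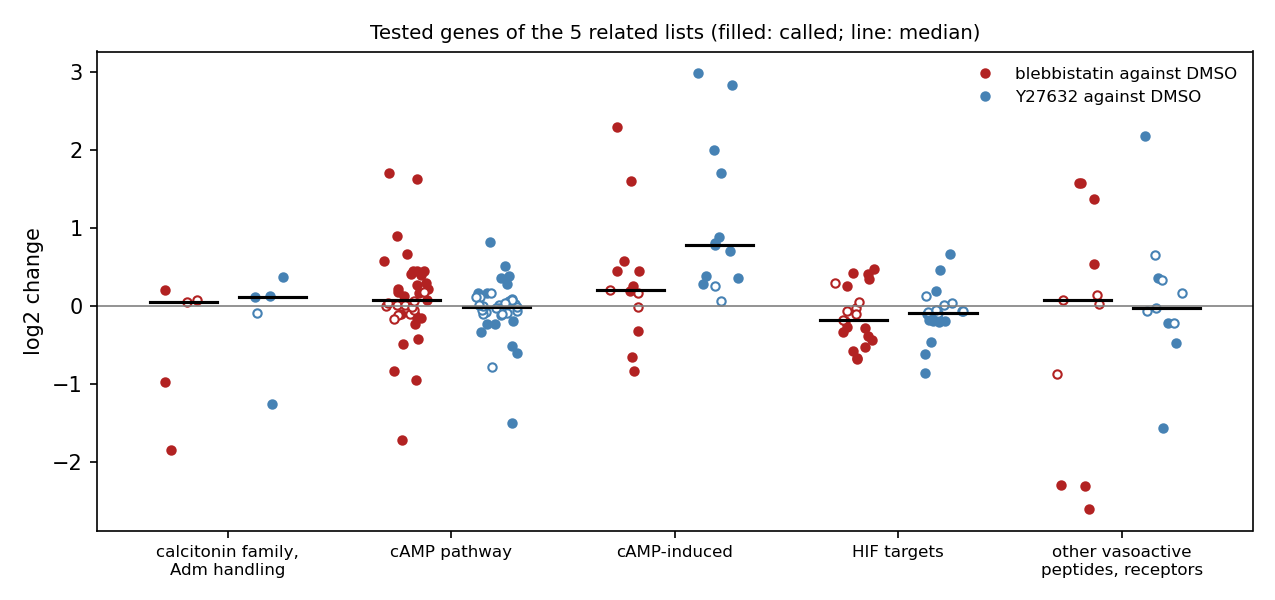
Log2 change against DMSO of every tested gene in 5 lists, for blebbistatin (red) and Y27632 (blue), with filled points called, open points not called and the black line the median. The largest median, 0.78, is that of the cAMP-induced genes with Y27632.

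The genes whose profiles lay nearest to each member over the 9 libraries were found by root-mean-square distance. Profiles were log2(CPM + 0.5) minus the DMSO mean, compared among genes with at least 100 reads on average (11464, or 11465 for Ramp1 and Ramp3). For Adm the nearest was Adcyap1r1, the receptor gene of the neuropeptide PACAP, at a distance of 0.115. It had 145, 154 and 150 CPM in DMSO, 32.2, 28.7 and 29.8 in blebbistatin and 128, 135 and 123 in Y27632. The next were Cyp26b1, a retinoic acid hydroxylase, at 0.192, the matricellular protein gene Thbs1 at 0.201, Arhgap20 at 0.212 and the matricellular protein gene Cyr61 at 0.217. Thbs1 was far more abundant in reads, at a mean of 9599.4 CPM in DMSO, 1950.8 in blebbistatin and 7218.6 in Y27632. Its Y27632 libraries lay below DMSO, where those of Adm overlapped it.

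**Figure D4:**
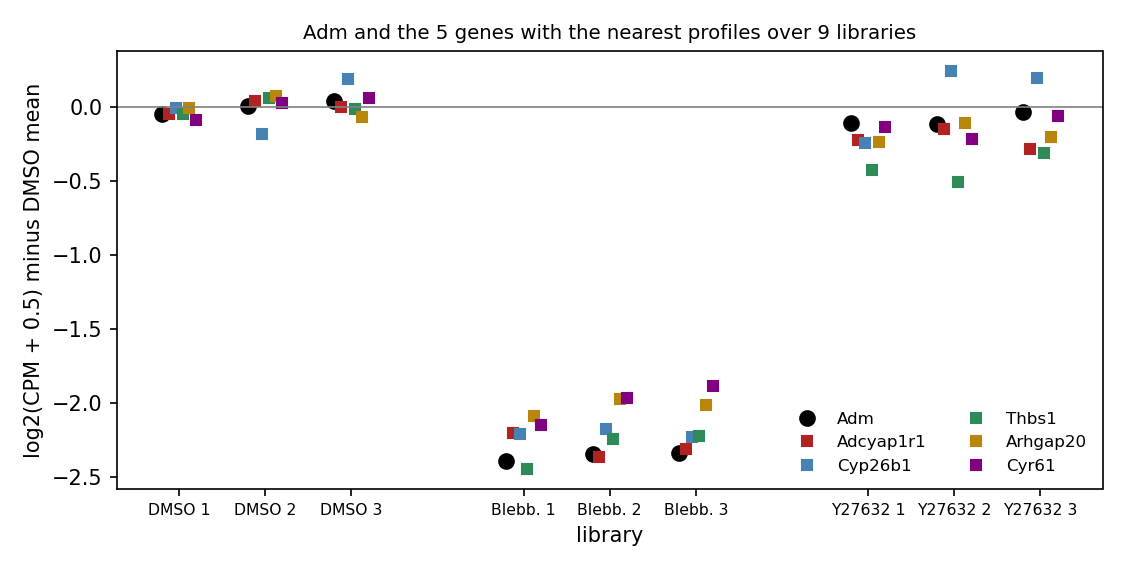
Log2(CPM + 0.5) minus the DMSO mean (vertical axis) in each of the 9 libraries (horizontal axis) for Adm (black circles) and the 5 genes nearest to it (squares). The 6 genes lie between -2.44 and -1.88 in the blebbistatin libraries and between -0.50 and 0.24 in the Y27632 libraries.

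For Ramp2 the nearest profile was that of Nbl1, which encodes a secreted antagonist of bone morphogenetic proteins, at 0.095. Nbl1 had 198, 188 and 196 CPM in DMSO, 683, 697 and 712 in blebbistatin and 330, 320 and 343 in Y27632, the same order of treatments as Ramp2. Mitf, a transcription factor gene, was next at 0.120. For Calcrl they were Bag2 and Pcdhb17 at 0.061 and 0.063, for Ramp1 Galnt6 and Hk3 at 0.090 and 0.104, and for Ramp3 Enpp1 and Cyp7b1 at 0.112 and 0.119.  Ramp1 and Ramp3 stood at means of only 0.768 and 0.302 CPM in DMSO, so the added 0.5 made their profiles flatter than their log2 changes. With blebbistatin the change was 1.92 for Ramp3 but 1.14 for Enpp1 and 1.11 for Cyp7b1, so these neighbours depend on the added 0.5. No function or control is read from these distances.

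In the authors' deposited site lists, which hold 970, 207, 6346, 7613 and 1231 sites in the 5 comparisons, Adm, Ramp1, Ramp2 and Ramp3 had 0 sites annotated to them. Calcrl had 3, all in the authors' deposited table of blebbistatin against none with doxycycline. Group means in these lists are log2 values made by the authors, with no values per library. They hold only sites at an FDR of up to 0.05, and the 3 lists of the doxycycline experiment also only sites with a log2 fold of at least 1 in size, so other sites at these genes are not described.

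Of these 3 sites, the authors' deposited table gives chr2:84410321-84410582 (mm10), in intron 1 of 15 of Calcrl and 14814 bases from the start, as 5.18 with blebbistatin and 6.27 without, a log2 fold of -1.09 (FDR 4.56e-05). The site chr2:84412789-84412941, in the same intron, stood at 4.11 and 5.39 in the authors' deposited table, a fold of -1.28 (FDR 0.000423). The third, the intergenic chr2:84222173-84222318, lay 203020 bases from the start and stood at 3.23 and 4.80 in the authors' deposited table, a fold of -1.57 (FDR 0.00102). All were lower with blebbistatin, as were 99.8% of the 6346 sites in that list, whose median log2 fold was -1.13 after that limit on the fold. No RNA was measured with doxycycline in the files used here, so these sites have no matching Calcrl level.

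A search by position, within 100 kb of a member's gene and under any gene's name, was chosen after the data had been seen. It gave 15 site entries, of which 13 carried another gene's name and 2 were the intronic Calcrl sites. Beside Adm, 68.8 kb from the gene, the authors' deposited tables list an intergenic site named for Ampd3, which was lower with blebbistatin both without doxycycline (log2 fold -1.03, FDR 0.00593) and with it (-1.10, FDR 1.23e-08). Beside Ramp2, 6.26 kb away in an intron of Vps25, the authors' deposited tables give a site that was higher with doxycycline (1.60, FDR 1.66e-08) and lower with blebbistatin added (-1.37, FDR 3.11e-07). Near Ramp1 the authors' deposited tables give 4 entries: a site named for Ube2f 6.12 kb away was higher with doxycycline (1.39, FDR 0.00212), another 31.6 kb away was higher with doxycycline (1.04, FDR 0.000816) and lower with blebbistatin added (-1.22, FDR 5.83e-05), and a site in Lrrfip1 84.3 kb away was lower with blebbistatin added (-1.08, FDR 4.97e-05). These lists share the group with doxycycline alone, so paired folds at a site rest in part on the same libraries. A site 83.7 kb from Ramp2, named for Tubg2, and a site 20.4 kb from Ramp3, named for Gm11981, were lower with blebbistatin added to doxycycline in the authors' deposited table, at -1.02 and -1.06. Ramp3 had the nearby site found in the ATAC list, 95.9 kb away, with a log2 fold of -1.72 for blebbistatin (FDR 0.0102) in the authors' deposited table. In the doxycycline experiment a site 96 kb away was higher with doxycycline (1.25) and lower with blebbistatin added (-1.10) in the authors' deposited tables. In the lists for blebbistatin the share of sites that were lower was 98.2% (ATAC), 99.0% (no doxycycline) and 99.8% (with doxycycline), so a lower site near a member is the common direction. Ramp2 and Ramp3 RNA was higher with blebbistatin where these neighbouring sites were lower, although the Ramp2 sites and the Ramp3 site at 20.4 kb were listed as lower only in cells given doxycycline, for which no RNA was read.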

How the data were processed

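The authors' tables hold, per gene and library, the normalised read count, a signal obtained by dividing counts by 1 size factor per library (from the values), separately for each drug. HISAT2, featureCounts, DESeq2, Bowtie2, Picard, SAMtools, MACS2, DiffBind and HOMER, and build mm10, are named per the submitters' processing notes, with no roles or versions. The deposited site lists give log2 group means, a log2 fold, a p-value and an FDR per site, per the file headers. In the list of doxycycline alone the reference column is headed as another group; it was read as the group with neither drug.

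Whole reads were recovered from the deposited normalised counts (100.0% of values whole within 0.01 reads) and scaled jointly by TMM to CPM. DMSO reads differed between the 2 tables for 0 of 35972 shared genes. Libraries held 23375386 to 37061737 reads, and low counts limit Ramp1 and Ramp3. Log2(normalised count + 1) values, for genes with a mean of at least 10, entered a limma trend fit (limma 3.58.1, R 4.3.3) of each drug against DMSO, over 6 libraries. The drugs were compared by edgeR 4.0.16 (quasi-likelihood, TMM) on recovered reads of 9 libraries. Calls use a Benjamini-Hochberg adjusted p of 0.05 over all genes tested. Fits were tested on simulated data.

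Members and gene lists were chosen with earlier results of these data known. Named genes were all members, up to 3 called genes per list, direction and drug with a mean of at least 50, the calcitonin family and HIF factors, the nearest profiles (5 for Adm, 2 otherwise), and up to 2 sites per list and member; genes and sites named beyond this, such as the third Calcrl site and the neighbouring sites, were chosen after their values were seen. Alternatives were DESeq2 1.42.0, edgeR, other pseudocounts and filters, the replicate block and leaving out each library. An item of the calcitonin list is not reported here and was left out of its counts. RNA with doxycycline was not analysed here.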

Additional observations from a re-analysis of the deposited data

How the results depend on the processing

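Of the main counts and of the 5 genes' changes under alternatives, 444 values were labelled the same, 4 moved, 2 gained a call and 1 lost it. A change was labelled the same if it kept its direction and its side of the threshold. A count was so labelled within a factor of 1.5, which hides smaller shifts. Leaving out each library, for example, gave 3 to 4 members called with blebbistatin and 2 to 3 with Y27632. With a minimum mean of 50, 2 members were called with blebbistatin instead of 4, because fewer genes enter the test, and 4 genes of the list of other vasoactive peptides and receptors instead of 7. With a pseudocount of 5 the Ramp1 change with Y27632 was 0.50 and moved to the called side of the threshold. Leaving out each library moved the Ramp1 change with blebbistatin between 0.65 and 1.01 and the Adm change with Y27632 between -0.11 and -0.06. The direct count of vasoactive genes ranged from 5, without blebbistatin replicate 2, to 9. Counting sites by position within 100 kb gave 15 in place of 3. Among other named genes, small changes turned sign: Mme with blebbistatin without DMSO replicate 3 (-0.03, range up to 0.10), Pcdhb17 with blebbistatin without blebbistatin replicate 1 (range -0.12 to 0.00), Cyp26b1 with Y27632 without DMSO replicate 2 or Y27632 replicate 2 (-0.02, range up to 0.24), and, between the drugs, Adcy5 without blebbistatin replicate 1 (0.11). A further 39 values of named genes lost their call and 3 gained one. The causes were not tested.

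No pairing of libraries by replicate number was seen, which does not show that there was none. Deviations of same-numbered libraries correlated at -0.061, 0.022 and 0.013 for blebbistatin and -0.095, -0.001 and -0.019 for Y27632. Those of different-numbered libraries correlated at -0.051 to 0.038 for blebbistatin and -0.036 to 0.056 for Y27632. With the replicate number as a block, 7604, 4633 and 7700 genes were called in the 3 comparisons, against 7894, 5328 and 7935 without it, and the calls of the 5 genes numbered 4, 2 and 4 as before.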

Other observations

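Other vasoactive peptides and their receptors were followed as a list of 19 genes, of which 11 were tested. With blebbistatin 4 rose and 3 fell (median log2 change 0.07), and with Y27632 2 rose and 3 fell (median -0.03). Of all genes tested, 53.0% were called with blebbistatin, 35.9% with Y27632 and 53.1% between the drugs. Between the drugs 5 were higher and 4 lower with blebbistatin, and without blebbistatin replicate 2 only 5 were called in all.

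Npr3, the clearance receptor of natriuretic peptides, had 82.0, 84.4 and 77.1 CPM in DMSO, 12.3, 15.9 and 12.3 in blebbistatin and 54.4, 61.1 and 59.8 in Y27632. The 3 groups did not overlap. Its log2 change was -2.60 (SE 0.088, adjusted p = 2.21e-10) with blebbistatin and -0.47 (SE 0.050, adjusted p = 1.17e-05) with Y27632. Adcyap1r1, also of this list, had changes of -2.31 (SE 0.047, adjusted p = 3.99e-12) and -0.22 (SE 0.038, adjusted p = 0.000657). It was named above as nearest to Adm from these same libraries, so its likeness to Adm here is not a second result.

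Ednra, a receptor of the vasoconstrictor endothelin, rose with blebbistatin, from 5.54, 4.99 and 4.77 CPM in DMSO to 17.5, 14.2 and 14.7 CPM (log2 change 1.58, SE 0.102, adjusted p = 6.05e-08). In Y27632 it had 6.53, 4.97 and 5.62 CPM, a range that overlapped DMSO. Bdkrb2, a bradykinin receptor, rose most with Y27632 in this list, from 1.95, 2.66 and 2.69 CPM in DMSO to 12.7, 8.66 and 12 CPM (2.18, SE 0.160, adjusted p = 3.92e-07). Blebbistatin libraries held 3.03, 3.95 and 3.59 CPM of Bdkrb2, and the direct difference was -1.65 (SE 0.155, adjusted p = 6.83e-07, edgeR).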
